A study of Homo sapiens with 12 samples.

Results

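The collagen genes outside the collagen IV family were followed in 12 RNA sequencing libraries of DAOY cells, an established line from a human medulloblastoma. A gene was taken when its name in the deposited tables was COL, a number, A and a number, with the COL4A genes left out. The rule found 44 gene identifiers with 38 symbols among 63677 identifiers, and 6 COL4A identifiers were set aside. Of the 44, 20 reached a mean of 1 TPM (a transcript level scaled for gene length and library size) over the 12 libraries and are described here, and 24 did not. The lowest gene inside that limit was COL17A1 at a mean of 1.03 TPM, and the highest outside it was COL11A2 at 0.644 TPM.

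The libraries came from DAOY cells without a knockout (WT) and from lines in which CRISPR/Cas9 had been used to inactivate NOTCH1 (NOTCH1KO) or NOTCH2 (NOTCH2KO). Each genotype was grown on plates coated with Fc, the control, or with the ligand Jagged1, which activates Notch signaling. Each plate type received the vehicle DMSO or DAPT, an inhibitor of the γ-secretase cleavage that releases the active Notch fragment, for 12 h. Every combination of genotype, plate and drug was a single library, so a genotype had 4 libraries and a culture had 3. Where 4 values follow each other below they are given for Fc (vehicle), Fc (DAPT), Jagged1 (vehicle) and Jagged1 (DAPT). Whether each knockout line was a single clone is not given in the sources used here, so the gene loss and the history of a line cannot be told apart.

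Collagens are secreted or membrane-bound proteins built of chains that wind around each other in a long helix. The fibrillar collagens I, III and V make up the load-bearing fibrils of connective tissue, collagen VI forms beaded microfilaments around cells, and fibril-associated collagens such as XII bind to the fibril surface. Most healthy brain tissue holds little fibrillar collagen outside its blood vessels and coverings, while cultured tumor lines can produce much of it. Canonical Notch signaling acts through the DNA-binding protein CSL, also named RBPJ, and the questions put to the libraries were which collagen genes differed between the lines and which moved with ligand and DAPT.

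The depth was 18.3 to 22.4 M reads per library, at which 1 read on a gene of 1 kb was worth 0.0947 to 0.117 TPM. In the NOTCH1KO libraries NOTCH1 lay at 0.278 to 0.874 TPM, below the 2.78 to 3.57 TPM of the WT libraries. NOTCH2 lay at 41.6 to 60.5 TPM in the NOTCH2KO libraries and at 74.9 to 94.9 TPM in WT, so its messenger RNA remained in the line labelled as its knockout. The paper examined the knockout lines for Notch protein by Western blot, and the RNA levels given here do not measure protein. All 12 fibroblast and mesenchymal marker genes checked were above 0 in at least 1 WT library, with a summed level of 4220 to 5280 TPM. So were all 8 epithelial markers, which summed to 793 to 1050 TPM in WT. The 14 neural progenitor and medulloblastoma markers summed to 110 to 134 TPM there, and only BARHL1 was at 0 in all WT libraries. A sum can rest on a few abundant genes, so these sums do not settle the identity of the cells. Of the 9 neural markers tested 1 rose and 3 fell in NOTCH1KO against WT, and 2 rose and 1 fell in NOTCH2KO. Of all genes tested 23.5% and 19.3% differed there in either direction, by limma at an adjusted p under 0.05. The 6 glial markers summed to a mean of 1.62 TPM in WT and 2.85 TPM in NOTCH2KO, with SOX10 and S100B at 0 in all libraries, and OLIG2, the 1 tested, rose by 0.85 (adjusted p = 0.00476) in NOTCH2KO against WT. The 7 blood and endothelial markers summed to 6.26 to 10.1 TPM in WT and 16.1 to 24.9 TPM in NOTCH1KO, with PTPRC and HBB at 0 in all libraries. LCP1, the 1 tested, rose by 1.28 (adjusted p = 0.0011) in NOTCH1KO, from a mean of 7.57 to 19.8 TPM. The part of these markers in the collagen differences was not tested. The library of NOTCH1KO cells on Fc with DAPT stood apart: 13 of the 20 collagen genes had their lowest NOTCH1KO level in it, against 27.7% of all tested genes. In WT the library on Jagged1 with DAPT held the lowest level of 11 of the 20, against 19.5% of all genes.

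Promoters are shown for COL5A3 and COL15A1, whose single WT libraries differed with ligand and DAPT, and for COL12A1, which was higher in each knockout line than in WT. Neither COL5A3 nor COL15A1 reached an adjusted p under 0.05 by limma for ligand or DAPT. COL3A1, which also differed in WT, is not shown. The sequences are from RefSeq on build GRCh38.p14, run 5′ to 3′ on the strand of the gene, and cover 250 bases before the start and 50 from it. Capitals mark TGGGAA or its reverse complement TTCCCA, the core of the CSL recognition sequence.
COL5A3 promoter, chr19:10010455-10010754, minus strand: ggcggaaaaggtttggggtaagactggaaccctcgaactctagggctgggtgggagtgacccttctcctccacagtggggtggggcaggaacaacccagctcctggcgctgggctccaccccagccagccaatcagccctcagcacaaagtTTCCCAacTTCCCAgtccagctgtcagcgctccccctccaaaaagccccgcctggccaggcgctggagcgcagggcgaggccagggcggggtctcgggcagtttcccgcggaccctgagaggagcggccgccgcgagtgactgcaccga
COL15A1 promoter, chr9:98943657-98943956, plus strand: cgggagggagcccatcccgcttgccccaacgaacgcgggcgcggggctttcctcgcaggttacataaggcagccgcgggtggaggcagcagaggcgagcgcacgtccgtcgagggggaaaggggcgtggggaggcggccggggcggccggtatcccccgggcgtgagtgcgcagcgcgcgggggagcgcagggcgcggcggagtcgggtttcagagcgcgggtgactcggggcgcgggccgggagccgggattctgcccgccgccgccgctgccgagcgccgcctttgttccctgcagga
COL12A1 promoter, chr6:75206004-75206303, minus strand: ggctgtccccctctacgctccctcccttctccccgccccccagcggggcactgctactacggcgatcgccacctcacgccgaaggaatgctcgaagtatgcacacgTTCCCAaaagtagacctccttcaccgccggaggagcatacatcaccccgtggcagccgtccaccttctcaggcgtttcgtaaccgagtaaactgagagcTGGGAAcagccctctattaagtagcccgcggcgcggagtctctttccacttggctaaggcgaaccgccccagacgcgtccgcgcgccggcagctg
The COL5A3 window held TTCCCA at 99 and again at 91 bases before the start, and the COL12A1 window held TTCCCA at 144 and TGGGAA at 45 bases before it. The COL15A1 window held neither. Of the 20 genes, 14 were matched in the promoter table, and 5 of these, COL5A3, COL7A1, COL12A1, COL13A1 and COL18A1, had the core in at least 1 window. Counted by window, 5 of the 16 windows of these genes held the core, beside 24.0% of all 35116 promoter windows of the same length. The longer form GTGGGAA, which contains the core, was found in 6.25% of all windows and among the collagen genes in COL18A1 alone. A match describes the letters and is no evidence of binding.

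The 20 genes fell into a few abundant ones and many low ones. Their summed level was 2707 ± 534 TPM (SD, n = 4) in WT, 2531 ± 581 in NOTCH1KO and 2662 ± 321 in NOTCH2KO, or 0.271%, 0.253% and 0.266% of all transcripts by TPM. The 5 genes above 300 TPM on average held 86.7% of the mean sum: COL1A1, COL1A2 and the collagen VI genes COL6A1, COL6A2 and COL6A3. COL1A1 and COL1A2 encode the chains of collagen I, the main fibril former, and collagen VI is assembled from the products of COL6A1, COL6A2 and COL6A3.

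**Figure D1:**
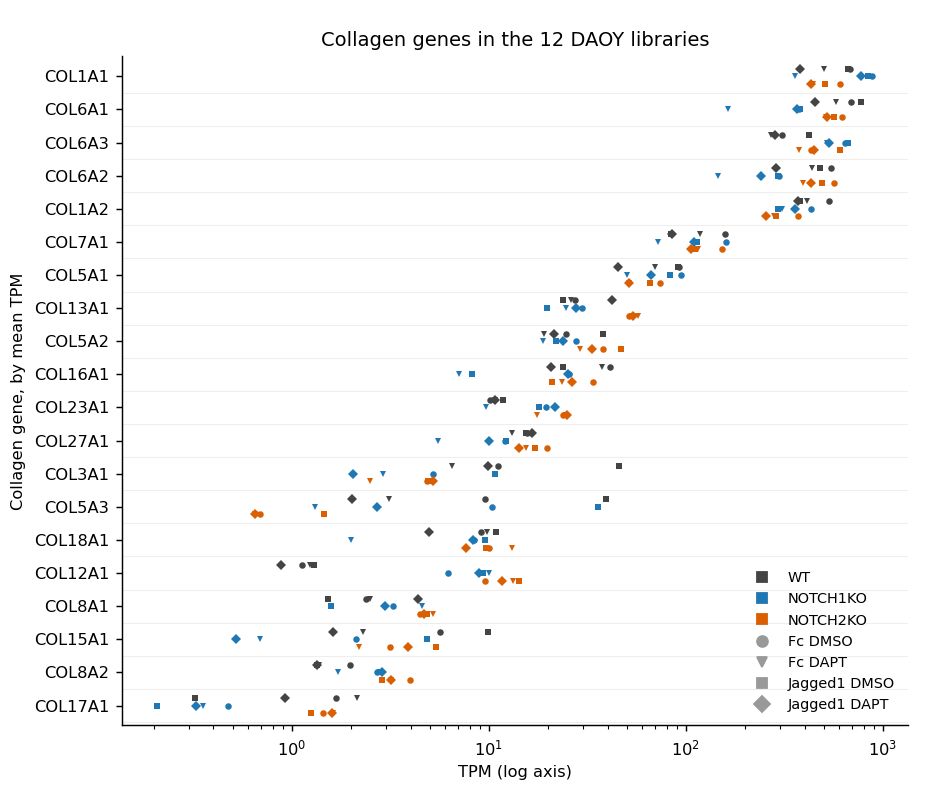
TPM on a log axis for the 20 collagen genes, ordered by their mean over 12 libraries, with genotype by colour and culture by marker shape. The top 5 genes lay above 300 TPM on average, and COL12A1, COL5A3 and COL3A1 showed the widest separation between genotypes or cultures.

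COL1A1 lay at a mean of 587 TPM over the 12 libraries. In WT it was at 678 TPM on Fc with DMSO, 502 on Fc with DAPT, 661 on Jagged1 with DMSO and 379 on Jagged1 with DAPT. The NOTCH1KO values in the same order were 881, 358.6, 835 and 770 TPM, and the NOTCH2KO values were 604, 440, 508 and 432 TPM. The genotypes overlapped, and the lowest of all the values was the NOTCH1KO library on Fc with DAPT. COL7A1, which forms the anchoring fibrils of skin, averaged 115 TPM, and COL5A1, a chain of the collagen V that starts collagen I fibrils, averaged 69.4 TPM. COL13A1 averaged 36.3, COL5A2 28.5, COL16A1 24.5, COL23A1 16.9 and COL27A1 13.9 TPM. The other 8 averaged under 10 TPM: COL3A1 (9.29), COL5A3 (8.98), COL18A1 (8.61), COL12A1 (7.31), COL8A1 (3.53), COL15A1 (3.52), COL8A2 (2.45) and COL17A1 (1.03).

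The relation of TPM to read depth was not the same for all of these genes. The deposited coverage, the mean read depth per base, stands in a fixed ratio to the length-scaled level for the most common class of genes. For 9 of the 20 collagen genes that ratio was under 30% of the common value, and for COL23A1 it was 4.49%, with a mean coverage of 0.369 reads per base. It was 10.3% for COL8A1, 14.4% for COL5A1, 15.1% for COL13A1, 16.8% for COL6A2 and 18.4% for COL16A1. In COL5A2, COL5A3 and COL8A2 it was 86.4%, 86.8% and 99.6%. The reason for the low ratios was not tested. A level set beside that of another collagen gene, as in the ratios between chains, carries this difference. The ratio also varied between libraries of the same gene. It ran from 34% to 94% in COL12A1 and from 21.7% to 89.2% in COL17A1. In COL3A1 it ran from 30.9% to 75%, in COL15A1 from 40% to 82.7% and in COL13A1 from 12.2% to 24.2%. TPM comparisons of these genes between lines or cultures carry that variation too.

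Below the limit of 1 TPM stood 18 symbols. COL9A2, COL9A3, COL14A1, COL19A1, COL20A1, COL21A1 and COL9A1 are fibril-associated, COL2A1, COL11A2 and COL24A1 fibrillar, and COL10A1 is the collagen of growth cartilage. The rest were COL6A5, COL6A6, COL25A1 and COL26A1, and COL11A1, COL22A1 and COL28A1, which were listed at 0 in every library. The highest value of any of them in a library was 1.99 TPM, for COL9A3 in NOTCH2KO cells on Fc with DAPT. A further 6 identifiers were copies of COL11A2 on alternate versions of the MHC region and were listed at 0 in every library.

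The NOTCH1KO line was compared with WT over 4 cultures in each by limma on log2(TPM + 1), with genotype and culture as additive terms. A gene was called at an adjusted p under 0.05 over all 17621 genes tested. Of the 20 collagen genes, 11 were called, 4 higher and 7 lower in NOTCH1KO, while 23.5% of all genes tested were called. The median difference over the 20 was -0.174 and over all genes 8.85e-05 on the log2 scale. The 4 higher genes were COL12A1, COL6A3, COL23A1 and COL8A2, and the 7 lower were COL3A1, COL6A1, COL15A1, COL6A2, COL17A1, COL27A1 and COL1A2.

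In NOTCH2KO against WT 9 of the 20 were called, 6 higher and 3 lower, beside 19.3% of all genes tested. The higher genes were COL12A1, COL23A1, COL13A1, COL8A2, COL6A3 and COL5A2, and the lower ones were COL5A3, COL3A1 and COL1A2. The median difference was 0.147 over the 20 and 0.0639 over all genes. COL12A1, COL6A3, COL23A1 and COL8A2 were called higher and COL3A1 and COL1A2 lower in each knockout line against the same WT libraries. In NOTCH2KO against NOTCH1KO 9 were called, 7 higher and 2 lower in NOTCH2KO, beside 31.7% of all genes. The median there was 0.508 over the 20 and 0.0741 over all genes. Shifting each library to the same median moved that comparison by 0.152 and gave 6 higher and 3 lower genes. In NOTCH1KO 2 of the 20 genes lay above WT and 2 below it without overlap, beside 24.4% of all genes in either direction. In NOTCH2KO against WT 5 lay above and 2 below, beside 24.7%. Against NOTCH1KO 6 lay above and 0 below in NOTCH2KO, beside 31.9%. A lack of overlap reported below is to be read against these shares.

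**Figure D2:**
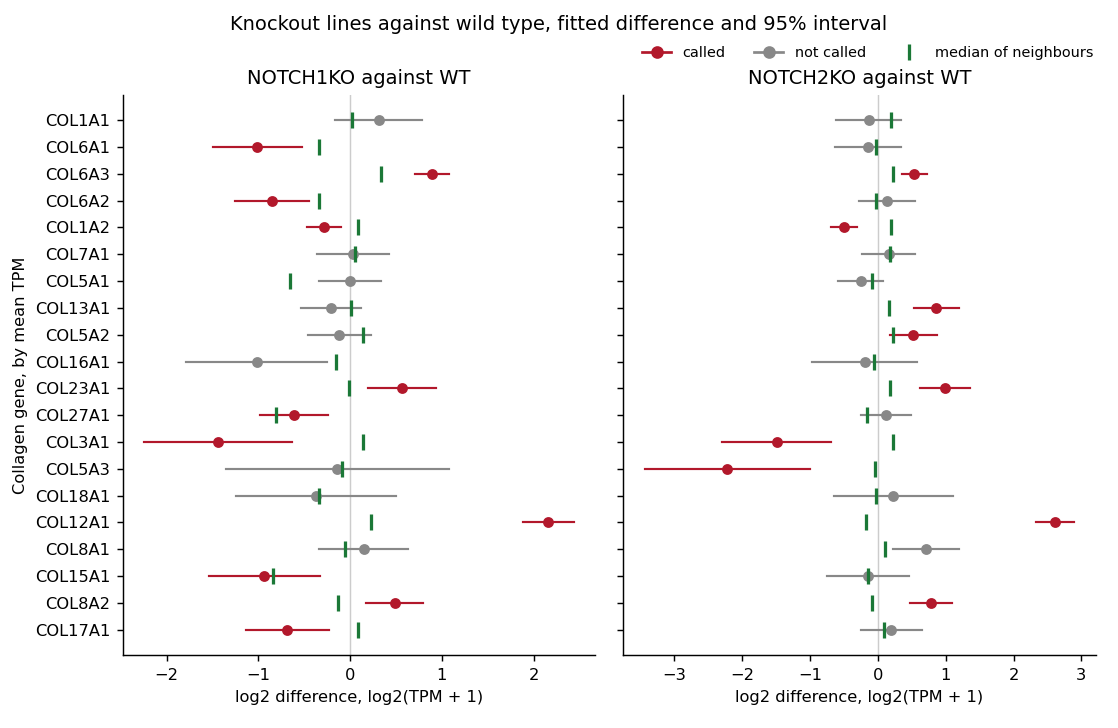
Fitted log2 difference of each collagen gene with its 95% interval in NOTCH1KO and NOTCH2KO against WT, red where called and grey where not, with a green tick at the median of protein-coding genes whose midpoint lay within 5 Mb. COL12A1 stood at 2.16 and 2.62, far from its neighbours at 0.22 and -0.18.

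COL12A1, the chain of the fibril-associated collagen XII, showed the largest fitted difference from WT on the log2(TPM + 1) scale, while in the ratio of means COL5A3 differed more, 15.7-fold between WT and NOTCH2KO. Its WT levels were 1.13 TPM on Fc with DMSO, 1.24 with DAPT there, 1.29 on Jagged1 with DMSO and 0.881 on Jagged1 with DAPT. The NOTCH1KO levels in that order were 6.23, 10.02, 9.34 and 8.93 TPM, and the NOTCH2KO levels were 9.53, 13.2, 14.3 and 11.7 TPM. Every library of either knockout line lay above every WT library, and the knockout lines overlapped each other.

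The mean of COL12A1 was 1.13 ± 0.182 TPM in WT (SD, n = 4), 8.63 ± 1.66 in NOTCH1KO, 7.61 times as high, and 12.2 ± 2.06 in NOTCH2KO, 10.7 times as high. Its coverage was 0.278 to 0.596 reads per base in WT, 1.77 to 2.45 in NOTCH1KO and 2.28 to 3.19 in NOTCH2KO. By coverage the folds were smaller than in TPM. The fitted log2 differences were 2.16 ± 0.122 (SE, adjusted p = 3.18e-05) and 2.62 ± 0.122 (adjusted p = 1.12e-05). The pair of calls held under all 22 alternative settings, with the difference between 1.69 and 2.81 in NOTCH1KO and between 2.08 and 3.31 in NOTCH2KO. NOTCH2KO was higher than NOTCH1KO by 0.46 ± 0.122 (adjusted p = 0.0216). That call did not hold when coverage replaced TPM (0.15, adjusted p = 0.416), when libraries were median-centred (0.30, adjusted p = 0.0958) and when any of 5 libraries was left out, where the adjusted p was 0.0574 to 0.0717. Those were the NOTCH1KO libraries with DMSO on either plate and the NOTCH2KO libraries on Fc with DAPT and on Jagged1 with either drug. COL12A1 (GRCh37 chr6:75794042-75915767, minus strand) had 22 tested protein-coding neighbours within 5 Mb, whose median difference was 0.223 in NOTCH1KO and -0.175 in NOTCH2KO against WT.

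The collagen VI chains differed from each other in the NOTCH1KO line. COL6A1 was at 691, 577, 776 and 453 TPM in WT, at 375, 163, 379 and 364.2 in NOTCH1KO and at 619, 514, 562 and 518 in NOTCH2KO. COL6A2 was at 546, 436, 477 and 285 TPM in WT, at 296, 145, 292 and 239 in NOTCH1KO and at 567, 393, 490 and 431 in NOTCH2KO. COL6A3 was at 306, 271, 420 and 285 TPM in WT, at 640, 520, 667 and 529 in NOTCH1KO and at 433, 376, 608 and 449 in NOTCH2KO. In NOTCH1KO the COL6A1 values all lay below WT and the COL6A3 values all above it, while COL6A2 overlapped WT through the WT library on Jagged1 with DAPT.

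COL6A1 fell by 1.01 on the log2 scale in NOTCH1KO against WT (SE 0.214, adjusted p = 0.0117) and COL6A2 fell by 0.85 (SE 0.178, adjusted p = 0.011). COL6A3, whose product is the longest of the chains, rose by 0.89 (SE 0.0817, adjusted p = 0.000298) in NOTCH1KO and by 0.54 (SE 0.0817, adjusted p = 0.00348) in NOTCH2KO. In NOTCH2KO, COL6A1 differed from WT by -0.15 with a 95% interval of -0.64 to 0.34, and COL6A2 by 0.13 with an interval of -0.27 to 0.54. The ratio of COL6A3 to COL6A1 in TPM was 0.521 ± 0.0826 in WT (SD, n = 4), 2.03 ± 0.787 in NOTCH1KO and 0.844 ± 0.173 in NOTCH2KO, with no overlap between the ranges of the 3 genotypes. COL6A1 to COL6A2 stayed closer, at 1.45 ± 0.184, 1.30 ± 0.165 and 1.19 ± 0.0932.

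COL6A1 and COL6A2 lie beside each other on chromosome 21 (GRCh37 chr21:47401651-47424964 and chr21:47518011-47552763), and COL6A3 lies on chromosome 2 (chr2:238232646-238323018). The 50 tested neighbours of COL6A1 on chromosome 21 had a median difference of -0.343 in NOTCH1KO against WT, with the middle 50% between -0.771 and -0.0877. Those of COL6A3 had a median of 0.332, with the middle 50% between -0.0227 and 0.481. The NOTCH1KO calls of COL6A1 and COL6A2 were lost only when the fit was limited to the NOTCH1KO and WT libraries (adjusted p = 0.0525 and 0.0598, against ranges of 0.00939 to 0.0525 and 0.00628 to 0.0598 over all alternatives). The COL6A3 calls against WT held under all 22.

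**Figure D3:**
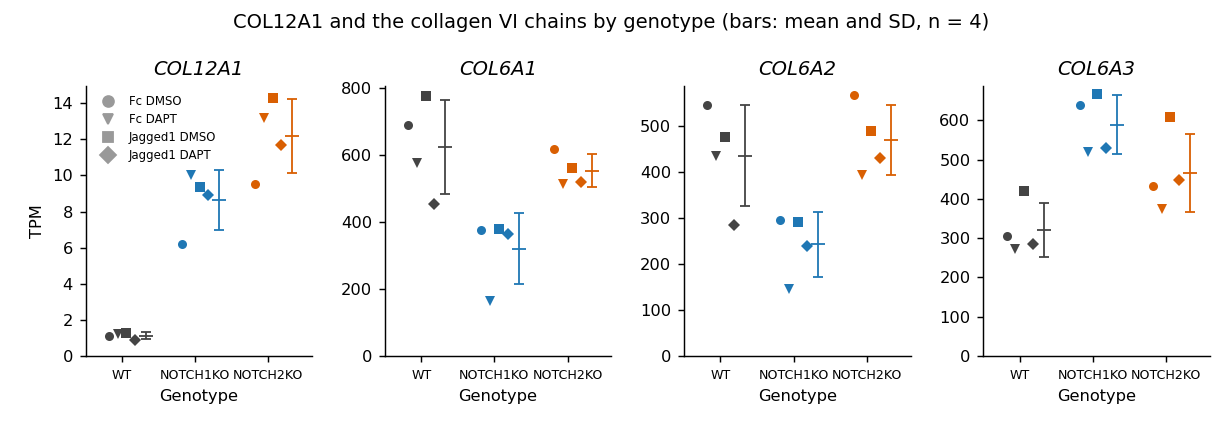
TPM of COL12A1, COL6A1, COL6A2 and COL6A3 in each library by genotype, with the mean and SD of 4 libraries at the right of each group and marker shape for culture. COL12A1 and COL6A3 lay higher in NOTCH1KO than in WT, while the means of COL6A1 and COL6A2 lay lower, with the lowest values in the NOTCH1KO library on Fc with DAPT.

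Among the fibrillar collagens, COL1A2 was lower in each knockout line. It was at 532, 409, 378 and 368.1 TPM in WT, at 429, 308, 293 and 356.7 in NOTCH1KO and at 372, 281, 286 and 254 in NOTCH2KO. Within each culture both knockout values lay below WT, although the groups overlapped. The difference was -0.28 ± 0.081 (SE, adjusted p = 0.0363) in NOTCH1KO and -0.50 ± 0.081 (adjusted p = 0.0047) in NOTCH2KO. The NOTCH2KO call held under all 22 alternatives, and the NOTCH1KO call was lost in 13 of them, with an adjusted p of up to 0.222.

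COL1A1, the partner of COL1A2 in collagen I, was not called in either line. Its difference was 0.31 with a 95% interval of -0.16 to 0.79 in NOTCH1KO and -0.14 with an interval of -0.61 to 0.34 in NOTCH2KO. Without the NOTCH1KO library on Fc with DAPT it was called higher in NOTCH1KO than in WT (0.57, adjusted p = 0.0228) and lower in NOTCH2KO than in NOTCH1KO (-0.71, adjusted p = 0.00692). Over all alternatives the adjusted p ran from 0.0228 to 0.672 and from 0.00692 to 0.35. The ratio of COL1A1 to COL1A2 was 1.32 ± 0.305 in WT, 2.06 ± 0.69 in NOTCH1KO and 1.67 ± 0.0922 in NOTCH2KO (SD, n = 4).

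Collagen V is built of the products of COL5A1 and COL5A2, with that of COL5A3 in some tissues. COL5A1 differed from WT by -0.000727 in NOTCH1KO, with a 95% interval of -0.34 to 0.34, while its 91 tested neighbours on chromosome 9 had a median of -0.651. COL5A2 was called higher in NOTCH2KO, at 37.8, 29.04, 46.8 and 33.5 TPM against 24.5, 19.1, 37.9 and 21.4 in WT. The difference was 0.52 ± 0.149 (SE, adjusted p = 0.0409), and it was lost in 10 of 22 alternatives (adjusted p up to 0.128), among them when any of 7 WT or NOTCH2KO libraries was left out, all except WT on Jagged1 with DMSO. COL27A1, a cartilage-type fibrillar collagen, was at 15.6, 13.1, 15.5 and 16.5 TPM in WT and at 12.1, 5.50, 12.2 and 9.96 in NOTCH1KO. Its difference of -0.61 ± 0.162 (adjusted p = 0.0272) stood beside a median of -0.814 over 42 neighbours on chromosome 9. The call was lost in 5 of 22 alternatives (adjusted p up to 0.0892), which were the fit of the WT and NOTCH1KO libraries alone and those without NOTCH1KO on Fc with DMSO or any WT library other than Fc with DMSO.

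COL5A3 had the lowest NOTCH2KO level relative to WT of the 20 genes. In WT it was at 9.58 TPM on Fc with DMSO, 3.11 on Fc with DAPT, 39.4 on Jagged1 with DMSO and 2.01 on Jagged1 with DAPT. The NOTCH1KO levels were 10.3, 1.30, 35.9 and 2.71 TPM, and those of NOTCH2KO were 0.690, 0.652, 1.45 and 0.649 TPM. Each NOTCH2KO library lay below each WT library, and the NOTCH1KO values overlapped those of WT.

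The mean of COL5A3 was 0.860 ± 0.393 TPM in NOTCH2KO (SD, n = 4), 13.5 ± 17.6 in WT and 12.6 ± 16.0 in NOTCH1KO, and the WT spread is that between cultures. On the log2 scale COL5A3 differed by -2.22 ± 0.532 (SE, adjusted p = 0.0219) from WT and by -2.08 ± 0.532 (adjusted p = 0.0184) from NOTCH1KO. The call against WT was lost when genotype was fitted alone (adjusted p = 0.11) and without WT on Fc with either drug, WT on Jagged1 with DMSO or NOTCH2KO on Fc with DMSO (0.0541 to 0.075). The call against NOTCH1KO was lost in the same fit (0.1), with the libraries of those genotypes alone (0.0523) and without NOTCH1KO on either plate with DMSO or NOTCH2KO on Fc with DMSO (0.0595 to 0.0628). The 188 tested neighbours on chromosome 19 had a median of -0.0392 in NOTCH2KO against WT.

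COL3A1, the chain of collagen III that is found with collagen I in extensible tissues, was at 11.2, 6.51, 45.7 and 9.86 TPM in WT. It was at 5.20, 2.88, 10.7 and 2.03 TPM in NOTCH1KO and at 4.83, 2.49, 4.90 and 5.19 in NOTCH2KO. Within each culture both knockout lines lay below WT, and the highest NOTCH2KO value was below the lowest WT value. The difference was -1.44 ± 0.352 (SE, adjusted p = 0.0205) in NOTCH1KO and -1.49 ± 0.352 (adjusted p = 0.0206) in NOTCH2KO. COL3A1 and COL5A2 are neighbours on chromosome 2 (GRCh37 chr2:189839046-189877472 and chr2:189896622-190044605), and COL5A2 moved the other way in NOTCH2KO. Without WT on Jagged1 with DMSO the COL3A1 differences were -1.10 (adjusted p = 0.0518) and -1.15 (adjusted p = 0.0553). With genotype fitted alone the adjusted p was 0.0768 and 0.0786. The NOTCH1KO call was also lost without NOTCH1KO on Jagged1 with DAPT (0.0563), and the NOTCH2KO call in a fit of its libraries and WT alone (0.0559) and without WT on Jagged1 with DAPT or NOTCH2KO on Fc with either drug (0.0506 to 0.0519).

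Of the 3 tested transmembrane collagens, COL13A1 and COL23A1 rose in NOTCH2KO. COL13A1, which is anchored in the cell membrane at adhesion sites, was at 27.4, 26.2, 23.8 and 41.9 TPM in WT, at 29.6, 24.6, 19.7 and 27.6 in NOTCH1KO and at 51.2, 56.9, 53.03 and 53.9 in NOTCH2KO. COL23A1 was at 10.1, 10.7, 11.8 and 10.8 TPM in WT, at 19.4, 9.70, 17.9 and 21.6 in NOTCH1KO and at 23.7, 17.6, 24.8 and 24.8 in NOTCH2KO. In TPM every NOTCH2KO value of either gene lay above every WT value. By coverage COL13A1 overlapped, with 3.04 reads per base in NOTCH2KO on Jagged1 with DMSO and 3.18 in WT on Fc with DAPT. COL13A1 was higher in NOTCH2KO than in WT by 0.86 ± 0.144 (SE, adjusted p = 0.00519) and than in NOTCH1KO by 1.07 ± 0.144 (adjusted p = 0.00108). COL23A1 rose by 0.99 ± 0.162 (adjusted p = 0.00484) in NOTCH2KO and by 0.56 ± 0.162 (adjusted p = 0.0374) in NOTCH1KO.

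COL17A1, a component of the hemidesmosomes of epithelia, was the exception among the called transmembrane genes. It was at 1.68, 2.15, 0.321 and 0.918 TPM in WT, at 0.476, 0.355, 0.208 and 0.325 in NOTCH1KO and at 1.44, 1.61, 1.25 and 1.59 in NOTCH2KO. On Fc with DMSO its coverage was 0.165 reads per base in WT and 0.185 in NOTCH1KO, so the lower NOTCH1KO level there was not seen in coverage. In each of the other cultures the NOTCH1KO coverage was below that of WT. COL17A1 differed by -0.69 ± 0.198 (SE, adjusted p = 0.0374) in NOTCH1KO and by 0.20 with an interval of -0.25 to 0.65 in NOTCH2KO against WT. Of the 8 epithelial markers checked, 6 were tested, and 1 rose and 2 fell in NOTCH1KO, beside 23.5% of all genes called. The 8 epithelial markers summed to 613 to 782 TPM there, against 793 to 1050 TPM in WT. Their part in the COL17A1 value was not tested. The NOTCH1KO calls of COL17A1 and COL23A1 were lost in 14 alternatives each, with an adjusted p of up to 0.115 and 0.131, while the NOTCH2KO calls of COL13A1 and COL23A1 held under all 22.

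COL8A2, a short-chain collagen of the cornea and vessels, was at 1.97, 1.38, 1.34 and 1.34 TPM in WT, at 2.70, 1.72, 2.80 and 2.87 in NOTCH1KO and at 3.996, 3.19, 2.86 and 3.18 in NOTCH2KO. It rose by 0.78 ± 0.134 (SE, adjusted p = 0.00595) in NOTCH2KO, where all libraries lay above WT, and by 0.48 ± 0.134 (adjusted p = 0.0325) in NOTCH1KO. The NOTCH1KO call was lost in 12 of 21 alternatives (adjusted p up to 0.104), among them when any of 9 libraries was left out: each WT library, NOTCH1KO other than Fc with DAPT, and NOTCH2KO on Fc with DMSO or Jagged1 with DAPT. Its partner COL8A1, at 1.53 to 5.23 TPM, differed by 0.71 with an adjusted p of 0.0509 in NOTCH2KO, and passed the threshold in 5 of 21 alternatives, among them without WT on Jagged1 with DAPT (0.0249) or NOTCH1KO on Fc with DAPT (0.0397). COL16A1, a fibril-associated collagen at 7.04 to 41.3 TPM, differed by -1.02 with an adjusted p of 0.0597 in NOTCH1KO, and passed without the Jagged1 with DAPT library of WT (0.0271) or NOTCH1KO (0.0176).

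COL18A1, whose product is the source of endostatin, was at 1.99 to 13.2 TPM and was not called in any comparison of lines, and its 95% interval in NOTCH1KO against WT was -1.25 to 0.51. COL7A1 differed by 0.03 with an interval of -0.36 to 0.43 in NOTCH1KO and by 0.16 with an interval of -0.23 to 0.55 in NOTCH2KO. COL15A1, a basement-membrane collagen related to COL18A1, differed by -0.94 ± 0.266 (SE, adjusted p = 0.0357) in NOTCH1KO against WT. Its 45 tested neighbours on chromosome 9 had a median of -0.843 there, so the gene lay inside the middle 50% of its region, -1.04 to -0.498, and its call was lost when any of 7 libraries was left out (adjusted p up to 0.11). Those were the WT libraries other than Jagged1 with DAPT, the NOTCH1KO libraries other than Jagged1 with DMSO and NOTCH2KO on Fc with DAPT.

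Between the knockout lines the collagen VI chains again went in opposite directions. COL6A1 was higher in NOTCH2KO than in NOTCH1KO by 0.86 ± 0.214 (SE, adjusted p = 0.0161) and COL6A2 by 0.99 ± 0.178 (adjusted p = 0.00401), while COL6A3 differed by -0.35 ± 0.0817 (adjusted p = 0.0124). The COL6A3 call was lost with the libraries of those lines alone (0.0517) and with genotype fitted alone (0.137), and that of COL6A1 without NOTCH2KO on Fc with DAPT (0.73, adjusted p = 0.0569). COL17A1 was higher in NOTCH2KO by 0.88 ± 0.198 (adjusted p = 0.0104), COL27A1 by 0.74 ± 0.162 (adjusted p = 0.00979) and COL5A2 by 0.64 ± 0.149 (adjusted p = 0.0123). The lines did not overlap for COL17A1, COL27A1 or COL5A2, as was so for 31.9% of all genes, while their COL6A3 values overlapped. Of the 9 genes called between the knockout lines, 7 had the sign of their neighbours' median, among them COL27A1, whose neighbours on chromosome 9 had a median of 0.679. Against WT the sign was shared by 6 of the 11 genes called in NOTCH1KO and 5 of the 9 called in NOTCH2KO.

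Leaving out single libraries moved the count of 11 called genes in NOTCH1KO against WT to between 5 and 10. It was 5 without NOTCH1KO on Fc with DMSO or WT on Jagged1 with DMSO, 6 without either WT library on Fc, and 7 without WT on Jagged1 with DAPT, NOTCH1KO on Jagged1 with DAPT or NOTCH2KO on Fc with either drug. Of the 11 called genes 8 lay outside the middle 50% of their neighbours, and the others, among them COL15A1 and COL27A1 on chromosome 9, lay within it.

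On Jagged1 with DMSO, the culture with ligand and without DAPT, none of the 20 genes was called against Fc with DMSO by limma. At the adjusted threshold 0.0114% of all genes were called, 2 genes in number, and at an unadjusted p under 0.05 there were 7 of the 20 beside 10.8% of all genes. For DAPT against DMSO on Jagged1 no collagen gene was called beside 0.0284% of all genes, and 6 passed the unadjusted threshold beside 11%. For DAPT on Fc none was called beside 0.0341%, and 11 passed the unadjusted threshold beside 6.14%. For Jagged1 against Fc under DAPT none was called beside 0.00568%, and 1 passed the unadjusted threshold beside 4.74%. Each of these comparisons rests on 3 pairs of libraries, 1 in each genotype, and comparisons that use the same libraries are not independent of each other.

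COL5A3, COL3A1 and COL15A1 had the largest fitted increases on Jagged1 with DMSO and the largest decreases with DAPT on Jagged1 among the 20 genes. In WT COL5A3 was 4.12 times as high on Jagged1 as on Fc with DMSO and 19.6 times as high as on Jagged1 with DAPT. In NOTCH1KO the ratios were 3.48 and 13.2, and in NOTCH2KO, where the level did not exceed 1.45 TPM, they were 2.10 and 2.23. Over the 3 genotypes the log2 difference was 1.39 ± 0.615 (SE, adjusted p = 0.466) for Jagged1 against Fc with DMSO and -2.54 ± 0.615 (adjusted p = 0.205) for DAPT against DMSO on Jagged1.

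COL15A1 was at 5.66, 2.30, 9.89 and 1.62 TPM in WT, at 2.12, 0.693, 4.83 and 0.521 in NOTCH1KO and at 3.16, 2.19, 5.41 and 3.87 in NOTCH2KO. The Jagged1 library with DMSO was the highest in every genotype. Its level there was 6.12 times that with DAPT in WT, 9.26 times in NOTCH1KO and 1.40 times in NOTCH2KO, and the fitted difference was -1.46 ± 0.307 (SE, adjusted p = 0.138).

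COL3A1 was 4.09 times as high on Jagged1 as on Fc with DMSO in WT and 2.06 times in NOTCH1KO, and in NOTCH2KO the ratio was 1.01. The ratio of Jagged1 with DMSO to Jagged1 with DAPT was 4.63, 5.27 and 0.944 in WT, NOTCH1KO and NOTCH2KO. In NOTCH2KO the coverage of COL3A1 was 0.756 reads per base on Fc with DMSO, 1.47 on Jagged1 with DMSO and 1.10 on Jagged1 with DAPT. By coverage, unlike TPM, COL3A1 was thus highest on Jagged1 with DMSO in NOTCH2KO too. Its fitted differences were 0.96 ± 0.407 (SE, adjusted p = 0.455) for the ligand and -1.33 ± 0.407 (adjusted p = 0.297) for DAPT on Jagged1. The 3 genes made up 3.05% of the collagen sum on Jagged1 with DMSO and 0.835% on Fc with DMSO in WT, and 0.414% and 0.287% in NOTCH2KO.

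**Figure D4:**
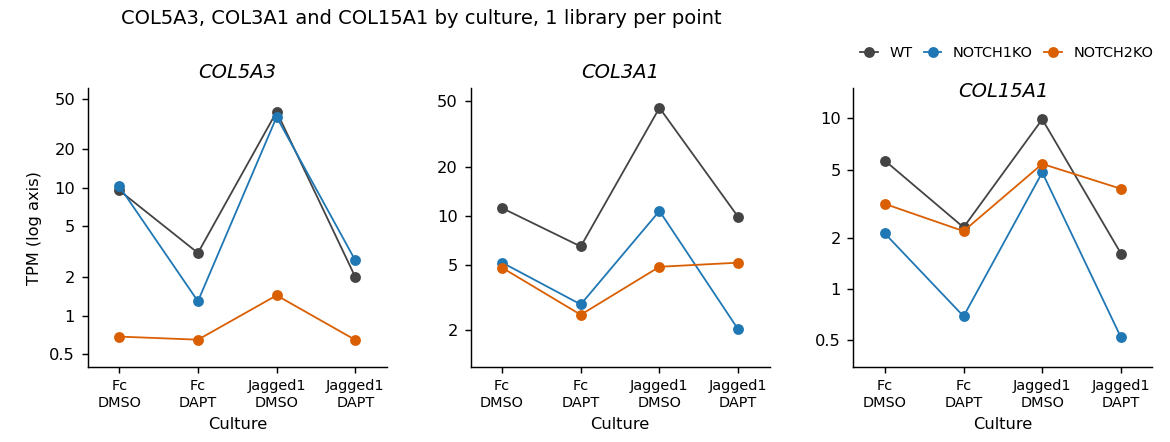
TPM on a log axis of COL5A3, COL3A1 and COL15A1 in the 4 cultures, 1 library per point, with a line for each genotype. In WT and NOTCH1KO each gene was highest on Jagged1 with DMSO, and COL5A3 in NOTCH2KO stayed between 0.649 and 1.45 TPM.

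Whether the response to ligand without DAPT differed between lines was tested by an interaction of genotype with Jagged1 plus DMSO, with 4 residual degrees of freedom. None of the 20 genes was called by limma in NOTCH1KO or in NOTCH2KO against WT, beside 0.0851% of all genes in each, with 1 gene (COL5A2) and 2 genes (COL3A1 and COL5A3) at an unadjusted p under 0.05, beside 5.41% and 5.89% of all genes. The difference of the response in NOTCH2KO from that in WT was -1.99 ± 0.493 (SE, adjusted p = 0.502) for COL3A1 and -2.44 ± 0.875 (adjusted p = 0.79) for COL5A3. In NOTCH1KO COL5A2 had the largest, -0.87 ± 0.18 (adjusted p = 0.52), and COL5A3 differed by 0.01 ± 0.875. 

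When the NOTCH2KO library on Jagged1 with DMSO was left out, COL5A3 was called for DAPT on Jagged1 (-3.36, adjusted p = 0.0359). Its adjusted p ran up to 1 over all alternatives. With all NOTCH2KO libraries left out, an alternative added once the values were known, the count of called collagen genes stayed at 0 in each of the 4 culture comparisons.

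The direction of the culture differences was shared by more genes than passed the test. On Jagged1 against Fc with DMSO, COL3A1, COL5A3, COL6A3, COL12A1 and COL15A1 were higher in all 3 genotypes, 5 of 20 beside 20.1% of all genes. COL1A1, COL1A2, COL5A1, COL6A2, COL7A1, COL16A1 and COL17A1 were lower in all 3, 7 of 20 beside 16.6% of all genes. For DAPT on Jagged1, 9 of 20 were lower in all 3 genotypes beside 19.8% of all genes, among them COL5A3, COL15A1 and each collagen VI chain.

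DAPT on Fc plates, where no ligand was coated, gave the largest count of genes moving one way. In all 3 genotypes 14 of the 20 genes were lower with DAPT than with DMSO, beside 13.3% of all genes. The median difference of the 20 was -0.473, and that of all genes was 0.00307. The smallest unadjusted p-values were those of 4 genes: COL1A2 differed by -0.42 ± 0.0936 (SE, adjusted p = 0.504), COL5A1 by -0.60 ± 0.17 (adjusted p = 0.627), COL7A1 by -0.65 ± 0.198 (adjusted p = 0.675) and COL6A2 by -0.62 ± 0.206 (adjusted p = 0.718).

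COL12A1 and COL8A1 went the other way, higher with DAPT in every genotype, by 0.37 and 0.21 on average. The NOTCH1KO pair, which holds the library that stood apart, had the lowest median difference of the 20 genes, -0.886. The WT and NOTCH2KO pairs had medians of -0.292 and -0.354, and without the NOTCH1KO pair 14 genes were lower in both of the other genotypes, beside 25.2% of all genes. These comparisons share their Fc with DMSO libraries with those of the ligand, and fewer collagen-producing cells and less collagen RNA per cell cannot be told apart in them.

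**Figure D5:**
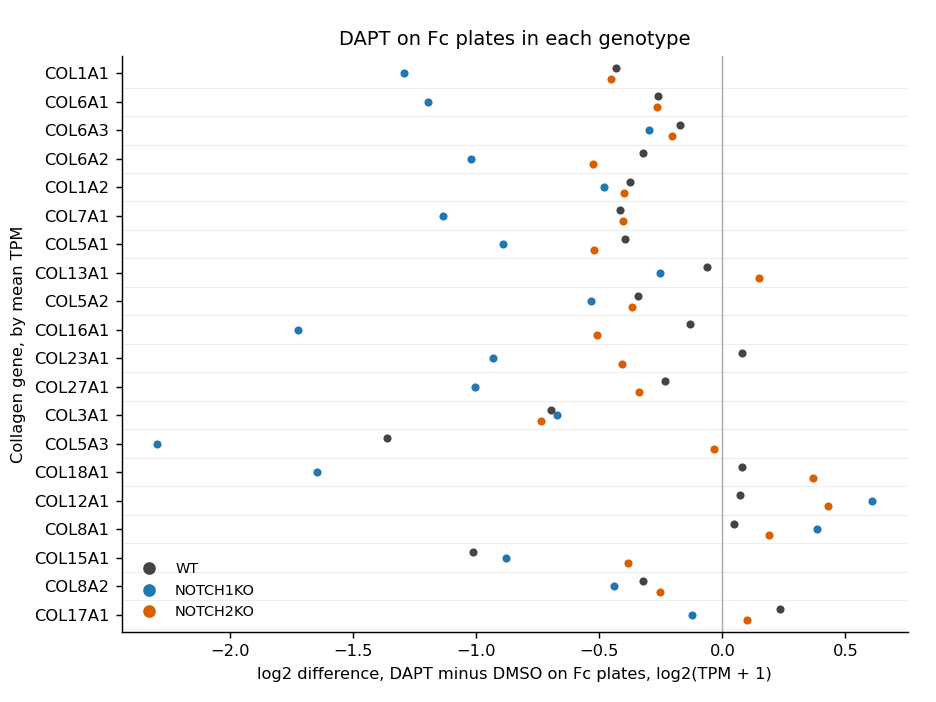
Difference in log2(TPM + 1) between DAPT and DMSO on Fc plates for each of the 20 collagen genes, 1 point per genotype. Most points lay left of 0, the NOTCH1KO point was the lowest for 16 of the 20 genes, and COL12A1 and COL8A1 lay right of 0 in all 3 genotypes.

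Genes for the modification, folding, processing, cross-linking, binding, sensing and cleavage of collagen were counted in lists of their own, and none of the 74 tested genes was called by limma in any of the 4 culture comparisons. At an unadjusted p under 0.05 there were 16 for Jagged1 against Fc with DMSO, 21 for DAPT on Jagged1, 14 for DAPT on Fc and 6 for Jagged1 against Fc under DAPT, beside 10.8%, 11%, 6.14% and 4.74% of all genes. Of the 74, 26 were called in NOTCH1KO against WT and 22 in NOTCH2KO against WT, and each list count below is to be read against the 23.5% and 19.3% of all genes called there. Prolyl and lysyl modification stabilizes the helix and prepares cross-links. Of the 15 genes in this list 1 rose and 4 fell in NOTCH1KO against WT, with a median of -0.0655, and 2 rose and none fell in NOTCH2KO, with a median of 0.132, beside 23.5% and 19.3% of all genes called. LEPREL1, a prolyl 3-hydroxylase also named P3H2, rose by 1.27 ± 0.244 (SE, adjusted p = 0.00789) and by 1.40 ± 0.244 (adjusted p = 0.00627). PLOD2, a lysyl hydroxylase, rose by 0.56 ± 0.0982 (adjusted p = 0.0063) in NOTCH2KO, and PLOD3 fell by 0.53 (SE 0.155, adjusted p = 0.0401) in NOTCH1KO.

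Folding and export were represented by 16 genes, of which 2 rose and 1 fell in NOTCH1KO and 3 rose and 2 fell in NOTCH2KO (23.5% and 19.3% of all genes). SERPINH1, the collagen-specific chaperone HSP47, was at a mean of 111 TPM in WT, 95.1 in NOTCH1KO and 51.3 in NOTCH2KO, a fall in NOTCH2KO of 1.09 on the log2 scale (SE 0.272, adjusted p = 0.0257). CREB3L1, a membrane-bound transcription factor that acts on collagen I genes in bone, fell by 1.16 (SE 0.301, adjusted p = 0.0294) in NOTCH2KO. HSPA5, the general chaperone BiP, rose by 0.85 ± 0.0722 (adjusted p = 0.000246) in NOTCH2KO. TMEM38B, an ion channel of the endoplasmic reticulum, fell by 0.82 (SE 0.165, adjusted p = 0.00956) in NOTCH1KO. Chromosomal neighbours were examined for the collagen genes only, so regional shifts were not set beside the genes of these lists.

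Among 4 tested genes of propeptide removal 1 rose in NOTCH1KO and 2 in NOTCH2KO (23.5% and 19.3% of all genes). PCOLCE, which enhances the removal of the collagen I propeptide, averaged 115 TPM in WT, 205 in NOTCH1KO and 275 in NOTCH2KO, with differences of 0.82 ± 0.197 (SE, adjusted p = 0.0193) and 1.28 ± 0.197 (adjusted p = 0.00379). Of 5 tested cross-linking genes 1 rose and 2 fell in NOTCH1KO, and 1 rose in NOTCH2KO, the latter near the 19.3% of all genes. LOX, the lysyl oxidase that cross-links collagen I and III fibrils, averaged 189 TPM in WT, 69.6 in NOTCH1KO and 181 in NOTCH2KO, a fall of 1.45 in NOTCH1KO (SE 0.0914, adjusted p = 5.52e-05). TGM2, a transglutaminase, rose by 0.68 ± 0.16 (adjusted p = 0.0173) and by 1.59 ± 0.16 (adjusted p = 0.000569).

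Of 12 tested fibril-binding matrix proteins, 6 rose and none fell in NOTCH1KO, with a median of 0.591, while 2 rose and 4 fell in NOTCH2KO, with a median of -0.254 (23.5% and 19.3% of all genes called). THBS2, which affects fibril assembly, averaged 16.3 TPM in WT, 69.9 in NOTCH1KO and 2.18 in NOTCH2KO, with differences of 2.04 ± 0.151 (SE, adjusted p = 0.000107) and -2.45 ± 0.151 (adjusted p = 5.09e-05). FN1, the fibronectin on which collagen I is deposited, rose by 0.62 ± 0.0794 (adjusted p = 0.00135) and fell by 0.37 (adjusted p = 0.0149). FMOD, a small proteoglycan that binds fibrils, fell by 1.62 (SE 0.299, adjusted p = 0.00798) in NOTCH2KO.

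Of 12 tested collagen receptors 2 rose and 2 fell in each knockout line, beside 23.5% and 19.3% of all genes called. DDR1, a receptor tyrosine kinase for collagen, fell by 0.89 (SE 0.178, adjusted p = 0.00956) in NOTCH1KO. ITGB1, the β chain of the collagen-binding integrins, rose by 0.44 ± 0.107 (adjusted p = 0.0207) and by 0.50 ± 0.107 (adjusted p = 0.014).

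Of 10 tested collagen-cleaving proteases 4 fell in NOTCH1KO and 2 in NOTCH2KO, and none rose, beside 23.5% and 19.3% of all genes called in either direction. MMP14, a membrane-bound collagenase, fell by 1.31 (SE 0.0663, adjusted p = 1.87e-05) in NOTCH1KO and fell by 0.62 in NOTCH2KO (adjusted p = 0.000765). FAP, a cell-surface protease of activated fibroblasts, fell by 0.99 (SE 0.0948, adjusted p = 0.000382) in NOTCH1KO and fell by 2.61 in NOTCH2KO (adjusted p = 2.25e-06). FAP is also one of the fibroblast and mesenchymal markers, of which 11 were tested. Of these, beside 23.5% and 19.3% of all genes called, 1 rose and 4 fell in NOTCH1KO, and 2 rose and 4 fell in NOTCH2KO. Their summed level was 3370 to 4630 TPM in NOTCH1KO and 4790 to 6830 TPM in NOTCH2KO, with DCN at 0 in NOTCH2KO, and their part in the collagen differences was not tested.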

How the data were processed

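RNA was poly-A selected and sequenced as stranded single reads of 51 bases, and per the labels the reads were handled with bcl2fastq 2.17 and CASAVA on GRCh37. The aligner, quantifier, annotation and strand setting are not given in the sources used here, so counts of overlapping or antisense genes could differ from those of another pipeline. The authors deposited 1 gene table per library with TPM (scaled to a fixed sum), FPKM (a fixed multiple of TPM within a library) and coverage (mean read depth per base, not scaled between libraries). TPM rows were summed per gene identifier. Depth was worked out from the ratio of coverage to FPKM, and no counts were used.

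Genes with a mean of at least 1 TPM (17621) were tested by limma 3.58.1 in R 4.3.3 on log2(TPM + 1), with a mean-variance trend and additive terms for genotype and culture (6 residual degrees of freedom, 4 for the interactions). All 7 comparisons and 2 interactions were adjusted over all genes by the Benjamini-Hochberg method, and the script was tested on simulated data. Fold changes on this scale understate those of low genes. With 1 library per combination, the error is the departure from additivity, and p-values measure only the spread between these libraries, which may be technical. The members and gene lists were chosen with earlier results of these data known. All collagen genes past the limit are named, with up to 4 called genes per list and comparison. The alternatives were another pseudocount, other filters, FPKM, coverage, median centring, library weights, fewer libraries, the compared term alone, the highest row per gene and each library left out. Python 3.11.15, pandas 2.3.3 and matplotlib 3.10.9 served for tables and plots.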

Additional observations from a re-analysis of the deposited data

Results flagged for a closer look

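Within a genotype the 4 libraries differ in culture, so a value far from the others can be a culture as well as a library. In 8 of 60 groups of 4 libraries the highest or lowest value lay far from the rest of its group, with a gap that took 0.834 to 0.949 of the range, a distance that chance would give in about 1 group of 20. COL6A1 at 163 TPM, COL18A1 at 1.99 TPM and COL8A2 at 1.72 TPM were the lowest NOTCH1KO values, all in the library on Fc with DAPT. In NOTCH2KO on Fc with DAPT, COL23A1 at 17.6 TPM and COL3A1 at 2.49 TPM were the lowest of that genotype. COL3A1 at 45.7 TPM in WT on Jagged1 with DMSO and COL5A3 at 1.45 TPM in NOTCH2KO on Jagged1 with DMSO were the highest of theirs, as was COL8A2 at 1.97 TPM in WT on Fc with DMSO.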

How the results depend on the processing

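The count of collagen genes called in NOTCH1KO against WT was 11, and it was 6 with no filter on low values, 4 with the libraries of those genotypes only, 6 with genotype alone in the fit, and 5 to 10 when each library was left out. The causes of these changes were not tested. In DAPT against DMSO on Jagged1 the count was 0, and 0 to 1 with each library left out, the gene being COL5A3. In the interaction of NOTCH1KO with Jagged1 and DMSO it was 0, and 1 with no filter. No collagen gene called in a comparison changed sign under an alternative. COL12A1 and COL6A3 kept their calls against WT in both lines under all 22 alternatives. The labels give no replicate numbers, and the numbers used here name cultures. Genotype and culture are both terms of the main fit, which thereby matches libraries by culture between lines and by genotype between cultures. No other pairing was possible. Depth limits the genes near 1 TPM, where 1 read on a gene of 1 kb was worth 0.0947 to 0.117 TPM.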
